A study of Mus musculus with 5480 samples.

Results

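Cell division in the developing mouse lung mesenchyme was read here through 44 genes of DNA replication and mitosis. The genes were chosen by name, and all 44 were found among the 18072 genes of the deposited count table. Of them, 16 act in or just before S phase and 28 in G2 and mitosis. By role, 9 license and fire replication origins (Mcm2 to Mcm7, Gins2, Cdc6, Cdt1), 5 serve DNA synthesis and its nucleotide supply (Pcna, Rrm1, Rrm2, Tyms, Uhrf1), and 6 are cyclins or their kinase (Ccne1, Ccne2, Ccna2, Ccnb1, Ccnb2, Cdk1). Another 3 belong to mitotic chromatin (Mki67, Top2a, Smc4), 4 to the spindle checkpoint and the anaphase-promoting complex, 4 to the mitotic kinases and the passenger complex, 5 to the centromere and kinetochore, 6 to the spindle, and 2 to cytokinesis.

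The series holds 5480 single cells of the distal lung, each sequenced as its own library on plates, from 10 mice. Each of 5 groups had 1 female and 1 male mouse: air-kept mice at embryonic day 18.5 (E18.5) and at 1 (P1), 7 (P7) and 21 days (P21) after birth, and hyperoxia mice at P7. The labels give no oxygen level, no duration of exposure and no strain. Each mouse gave 311 to 633 cells, and the authors named 16 cell subtypes, of which 3 carry the word proliferating. Those 3 (fibroblast, myofibroblast and pericyte) hold 157, 118 and 19 cells.

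As background, origins are licensed in G1 by loading of the MCM helicase ring, which Cdc6 and Cdt1 carry out. Cyclin E with its kinase starts S phase, cyclin A acts through S and G2, and cyclin B with Cdk1 drives entry into mitosis. E2F factors are known for switching on the S phase genes, and the DREAM complex with B-Myb and FoxM1 for the later timing of the mitotic genes, the latter through a promoter element called the cell cycle genes homology region (CHR). In the perinatal lung, fibroblasts and myofibroblasts multiply while the saccules are divided into alveoli.

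The 2 sets of members differed in the letters of their promoters, and the stretches below are shown for that reason. RefSeq promoter windows (build GRCm38.p6, 250 bases before to 50 bases after each start) were matched for 37 of the 44 members, 13 of S phase and 24 of G2 and mitosis. A member with more than 1 window (Ect2, Mcm7 and Uhrf1) counts where any of them holds the letters. Those not matched were Mcm4, Gins2, Ccne2, Ccna2, Aurkb, Tpx2 and Smc4. The CHR letters TTTGAA, read on both strands, were in 18 of 24 G2 and mitosis promoters (75.0%) and in 1 of 13 S phase promoters (Mcm2), against 17.9% of 32851 windows. E2F-type letters (TTTCCCGC, TTTGGCGC, TTTCGCGC or TTTGCCGC, both strands) were in 7 of 13 S phase promoters (Mcm3, Mcm5, Mcm6, Mcm7, Cdc6, Cdt1 and Uhrf1) and in 1 of 24 G2 and mitosis promoters (Cdk1), against 2.27% of windows. The A form of the CHR, TTTAAA, was in 8 of 24 and 4 of 13, against 13.2%. CCAAT, the letters of the CCAAT box, was in 18 of 24 and 9 of 13, against 37.4%. A match is a description of letters and not a bound site. The 200 bases before the start of 6 members follow, on the gene's strand, with TTTGAA and E2F-type matches of either strand in capitals (overlapping matches run together). Mcm5 (chr8:75109309-75109508, plus strand) and Mcm6 (chr1:128359706-128359905, minus) encode helicase subunits. Cdk1 (chr10:69352913-69353112, minus) encodes the mitotic kinase. Cdc20 (chr4:118437344-118437543, minus) encodes the activator of the anaphase-promoting complex. Top2a (chr11:99024190-99024389, minus) encodes the topoisomerase that untangles sister chromatids. Mki67 (chr7:135716380-135716579, minus) encodes the Ki-67 protein that coats mitotic chromosomes.
Mcm5: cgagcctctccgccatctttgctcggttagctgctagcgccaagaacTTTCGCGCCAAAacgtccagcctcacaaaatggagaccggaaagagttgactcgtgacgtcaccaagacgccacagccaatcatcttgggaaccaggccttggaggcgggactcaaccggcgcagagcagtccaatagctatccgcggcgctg
Mcm6: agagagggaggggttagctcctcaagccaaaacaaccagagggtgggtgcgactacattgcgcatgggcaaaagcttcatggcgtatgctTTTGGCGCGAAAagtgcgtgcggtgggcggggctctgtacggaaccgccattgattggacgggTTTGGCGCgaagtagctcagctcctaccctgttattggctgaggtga
Cdk1: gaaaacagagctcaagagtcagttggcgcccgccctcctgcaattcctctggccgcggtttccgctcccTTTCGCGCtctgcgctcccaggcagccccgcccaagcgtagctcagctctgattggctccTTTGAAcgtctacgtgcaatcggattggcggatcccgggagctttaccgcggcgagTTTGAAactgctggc
Cdc20: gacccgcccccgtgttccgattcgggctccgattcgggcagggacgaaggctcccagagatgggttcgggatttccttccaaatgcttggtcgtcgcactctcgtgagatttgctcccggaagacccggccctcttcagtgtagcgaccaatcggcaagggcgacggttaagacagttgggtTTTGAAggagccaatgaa
Top2a: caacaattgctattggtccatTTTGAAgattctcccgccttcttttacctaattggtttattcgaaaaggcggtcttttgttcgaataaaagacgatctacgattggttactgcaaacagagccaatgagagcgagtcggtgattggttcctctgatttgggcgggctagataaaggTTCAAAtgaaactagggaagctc
Mki67: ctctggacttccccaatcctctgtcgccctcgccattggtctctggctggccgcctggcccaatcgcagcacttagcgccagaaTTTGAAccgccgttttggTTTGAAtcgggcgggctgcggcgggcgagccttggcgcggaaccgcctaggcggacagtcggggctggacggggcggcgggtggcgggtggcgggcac
Mcm5 and Mcm6 carry E2F-type letters and no TTTGAA, whereas Cdc20, Top2a and Mki67 carry TTTGAA and no E2F-type letters. Cdk1 carries both, and was the only matched member to do so; 0.274% of all windows hold both.

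**Figure D1:**
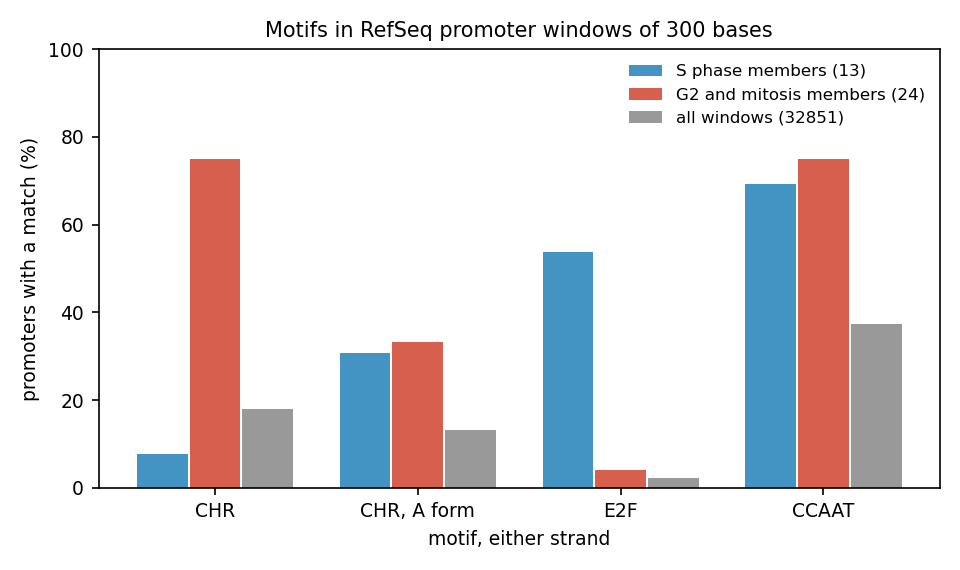
Share of promoters with a match to each of 4 motifs (y axis, percent; x axis, motif, either strand), for the matched S phase members, the matched G2 and mitosis members and all RefSeq windows. TTTGAA reached 75.0% of the G2 and mitosis promoters, and E2F-type letters 7 of 13 S phase promoters.

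Depth per cell ran from 39358 to 5177020 reads, with a median of 774305 in all and of 521125 to 1084627 by mouse. To compare detection, each cell was thinned to 100000 reads, which left out 168 shallower cells. The sort labels gave 5409 mesenchymal cells, 69 CD31 and 2 CD45 cells. The authors' names for the proliferating subtypes matched their markers: 6 contractile genes summed to 11067 CPM (read counts scaled to library size) in proliferating myofibroblasts and 1628 in proliferating fibroblasts, 6 mesenchymal genes to 3730 and 11640, and 6 pericyte genes to 8544 in proliferating pericytes. Endothelial, immune and epithelial lists of 6 genes each summed to 12.6, 14.5 and 39.0 CPM over the proliferating cells. A mesothelial list of 6 genes summed to 146.6 CPM over them. In the 19 proliferating pericytes the immune list summed to 54.2 CPM. The mesothelial list summed to 525.6 CPM there, all of it from Nkain4. Sequencing runs followed the groups in part. For the mesenchymal sort, each hyperoxia mouse had a run of its own, the 4 male air mice shared a run, and another run held the females of E18.5 and P1. Most of the few CD31 cells were in further runs, 1 of which held 9 cells of the male hyperoxia mouse and 14 of the male P7 air mouse.

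Cells of the proliferating subtypes held a median of 29 members with a read (quartiles 21 to 36, 289 cells), 7 of S phase and 22 of G2 and mitosis. The 5023 cells of the other subtypes held a median of 2 (quartiles 1 to 4), and 798 of them (15.9%) held none. The authors drew those subtypes from expression, so this contrast is a description and was not tested. It separated the sets unevenly. Of 28 G2 and mitosis members, 27 had most of their reads in the 294 proliferating cells (median 87.7% of reads), with Smc4, a condensin subunit, the exception at 42.8%. Of 16 S phase members, 1 did (Rrm2, the regulated subunit of ribonucleotide reductase, 66.6%), and the median was 29.1%. Most reads of Mcm4, of which 13.0% were in proliferating cells, and of Pcna, the sliding clamp of the polymerases (19.9%), came from cells of other subtypes. The proliferating subtypes were 294 of the 5480 cells. Even the lowest of these shares of reads, 13.0% for Mcm4, was thus above their part of the cells.

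**Figure D2:**
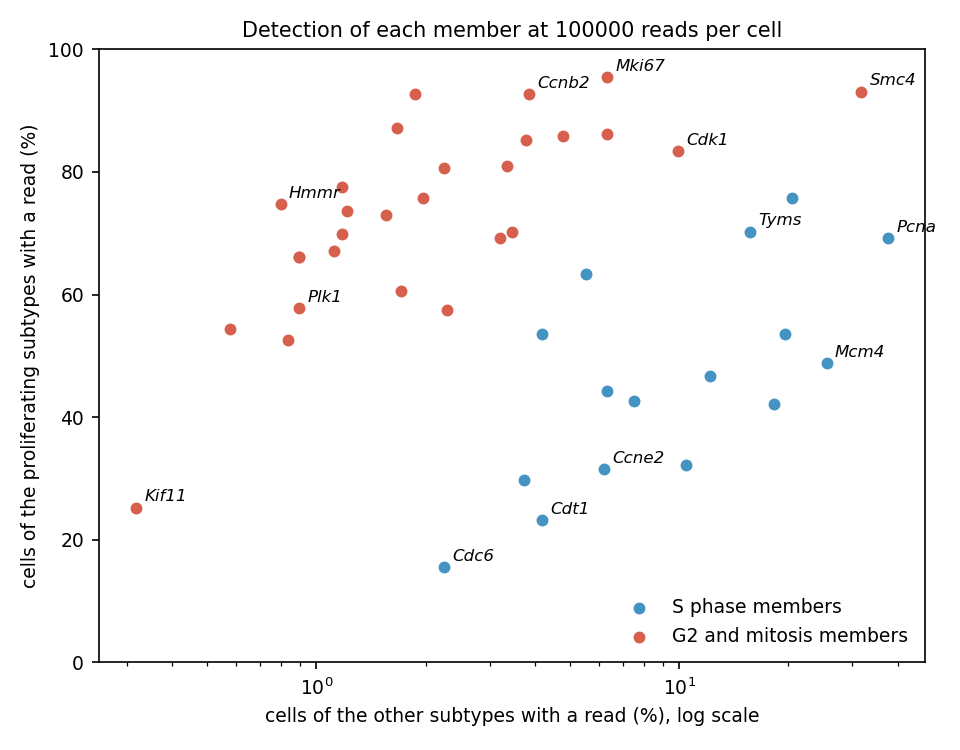
Each point is 1 member: the share of cells of the other subtypes with a read (x axis, percent, log scale) against the share of cells of the proliferating subtypes with a read (y axis, percent), at 100000 reads per cell. Most G2 and mitosis members lie at the left and high, while the S phase members spread to the right, up to 37.6% for Pcna.

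Detection differed between roles, with ranges that overlapped. Origin licensing genes were read in 15.6% (Cdc6) to 53.6% of proliferating cells and in 2.25% to 25.5% (Mcm4) of the others. The genes of DNA synthesis and nucleotide supply were read in 53.6% to 75.8% (Rrm1) and in 4.18% to 37.6% (Pcna). In mitotic chromatin, Mki67 was read in 95.5% of proliferating and 6.33% of other cells, and Top2a in 85.1% and 3.78%. Outside, the checkpoint genes (Cdc20, Bub1, Bub1b and Ube2c) had the lowest upper end of the 9 roles, at 0.577% to 1.71%. The mitotic kinases and passenger genes were close by at 0.896% to 2.29%. The rarest single member outside was a spindle gene, Kif11, at 0.319%. Kif11, the motor that pushes spindle poles apart, stood out among spindle genes by its few reads: 1310 in all, in 223 cells, with a median of 3 reads in a cell with any. Cenpe, a kinetochore motor, had reads in 1064 cells, of which 51.6% had only 1 or 2. A share of cells with a read counts such cells as it counts the others.

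Per kilobase of annotated exon, levels within proliferating fibroblasts differed widely between members. The highest was Ccnb2 (cyclin B2) at 770.5 CPM per kilobase, with 769 to 1604 CPM over 5 mice. Cdc20 followed among the checkpoint genes at 347, Birc5 (survivin, of the passenger complex) among the kinases at 239.7, and Cenpa (the centromeric histone) among the centromere genes at 174. On the same scale Rrm2 led the synthesis genes at 142 and Mcm4 the licensing genes at 31.3. The lowest of each of the 9 roles were Mcm2 at 5.84, Uhrf1 at 20.9, Ccne2 at 11.8, Mki67 at 70.5, Bub1 at 17.7, Plk1 at 97.5, Ndc80 at 31.9, Kif11 at 0.470 and Ect2 at 18.0 CPM per kilobase. The order by length holds only as far as all annotated exons are in use, and the exon length of Cenpa, 5860 bases, includes long exons.

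To place single cells, a cell was called S-rich with reads from 5 or more of the 16 S phase members and G2M-rich with 8 or more of the 28 others. These are ranges of a score and not cell types. Outside the proliferating subtypes, 151 cells lay at 5 S phase members and 308 at 4, and 8 cells lay at 8 G2 and mitosis members and 14 at 7. By this rule 471 cells were S-rich only, 207 were both, 114 were G2M-rich only and 4520 were neither. The authors' proliferating subtypes held 276 of the 321 G2M-rich cells. They held 3 of the 471 cells that were S-rich only, so 468 (99.4%) carried the names of other subtypes.

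**Figure D3:**
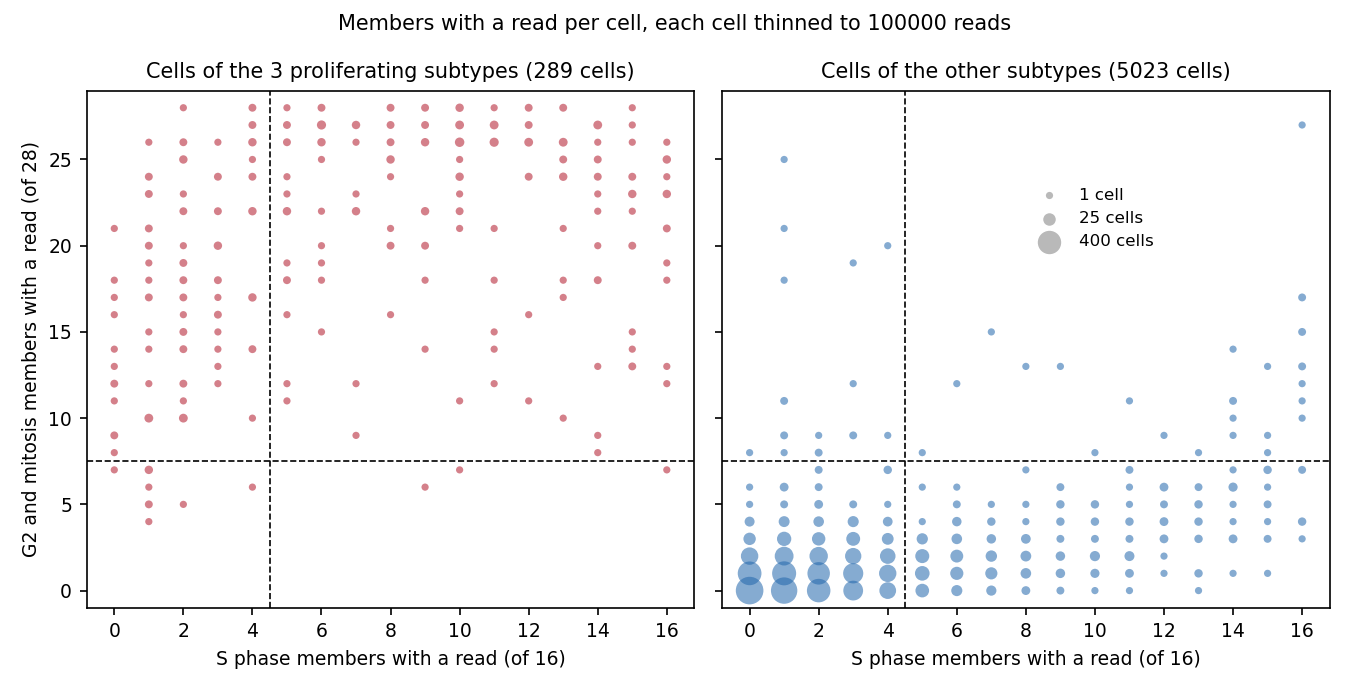
Members with a read per cell, S phase members (x axis, of 16) against G2 and mitosis members (y axis, of 28), in the proliferating subtypes and in all others, each cell thinned to 100000 reads. Dashed lines mark 5 and 8 members. Cells of the other subtypes extend along the S phase axis, while 276 of the 289 proliferating cells reach 8 or more G2 and mitosis members.

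Cell cycle genes that the rule had not used fell along the same axis. Of 40 other S phase genes, 35 were read in a larger share of S-rich-only than of G2M-rich-only cells, with medians of 19.9% and 11.0% of cells. Of 62 other G2 and mitosis genes, 58 were read more often in the G2M-rich-only cells, with medians of 46.5% and 7.22%. Both lists had their highest medians in the cells that were both, 60.6% for the other S phase genes and 75.8% for the later ones. In cells that were neither, the medians were 3.61% and 1.96%. The 5 S phase exceptions were E2f8, Dbf4, Pclaf, Asf1b and Rad51ap1, of which Pclaf, a partner of Pcna, was read in 17.2% of S-rich-only and 64.9% of G2M-rich-only cells. The 4 exceptions among the later genes were Mybl2, Wee1, Pttg1 and Bub3. All these genes come from the same cells as the score, so the counts are descriptions without a test.

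The cyclins were split between the states. A cyclin E gene (Ccne1 or Ccne2) was read in 38.2% of S-rich-only cells and in 6 of 114 G2M-rich-only cells (5.26%). A cyclin B gene (Ccnb1 or Ccnb2) was read in 6.16% of the former and 98.2% of the latter. Cells that were both had a cyclin E gene in 66.2% and a cyclin B gene in 86.0%. These cyclins are members and helped to place the cells, so their split is in part built in. Cells with 10 or more members, both sets counted together, are called member-rich below. The 215 such cells of other subtypes had cyclin E in 60.0% and cyclin B in 20.0%. The shares were 42.2% and 94.8% in the 289 proliferating cells, and 6.30% and 4.14% in the remaining 4808. Median depth was 936487 reads in those 215 cells, 959092 in the proliferating cells and 782527 in the remainder, and the median number of genes at equal depth was 4217, 3842 and 2935. The part of gene number in member counts was not tested.

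Among the subtypes not named proliferating, member-rich cells made up the largest share of myofibroblasts. These contractile cells of the growing septa held 72 of 500 (14.4%, Wilson 95% interval 11.6 to 17.8), and 21.4% of them were S-rich only. By mouse the member-rich share of myofibroblasts was 29.4% and 11.1% at P1, 10.5% and 11.2% at P7, and 19.0% and 26.7% in hyperoxia (female, then male throughout). The female P1 mouse's interval (16.8 to 46.2) did not overlap those of the P7 air mice (6.58 to 16.4 and 7.39 to 16.7), and all other pairs of these mice overlapped. The cells of a subtype share their mouse, so the intervals cover counting error only. Vascular smooth muscle had 6.25%, early adventitial fibroblasts 4.97%, early alveolar fibroblasts 3.33% and pericytes 3.27%. Airway smooth muscle had 0 of 112 (Wilson 95% upper bound 3.32%) and mature alveolar fibroblasts 0 of 243 (1.56%), all of them P21 cells. The other shares pool the ages at which a subtype was found. Pericytes included 69 and 72 P21 cells, none of them member-rich, whereas no myofibroblast came from P21. The part of age in the order of subtypes was not tested. The male hyperoxic fibroblasts, a subtype of 55 cells here, were S-rich only in 25.5% and member-rich in 7.27%.

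The sums over all cells of a mouse differed between ages, and the 2 sets did not follow the same course. Before birth (E18.5) G2 and mitosis members summed to 1025 and 1102 CPM, and then to 291 and 476 at P1, to 1610 and 2046 at P7 and to 87.4 and 106 at P21. The S phase members summed to 477 and 642, 552 and 572, 884 and 865, and 238 and 285 CPM at the same ages. P1 mice lay below E18.5 mice for the later set and within their range for the earlier set, P7 mice were above all others for both, and P21 mice were lowest for both. A sum over a mouse's cells cannot tell fewer dividing cells from less RNA per dividing cell. Cells named proliferating were 40 of 627 and 38 of 579 before birth, then 8 of 633 and 11 of 570 on day 1. Day 7 mice had 54 of 606 and 56 of 570, and P21 mice none. Within these cells the later set went from 13778 and 12878 CPM to 9082 and 9764, then 12633 and 15783. The S phase set there went from 1295 and 2926 to 3237 and 4233, then 2852 and 3275 CPM. The part of cell number in this course was not tested.

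**Figure D4:**
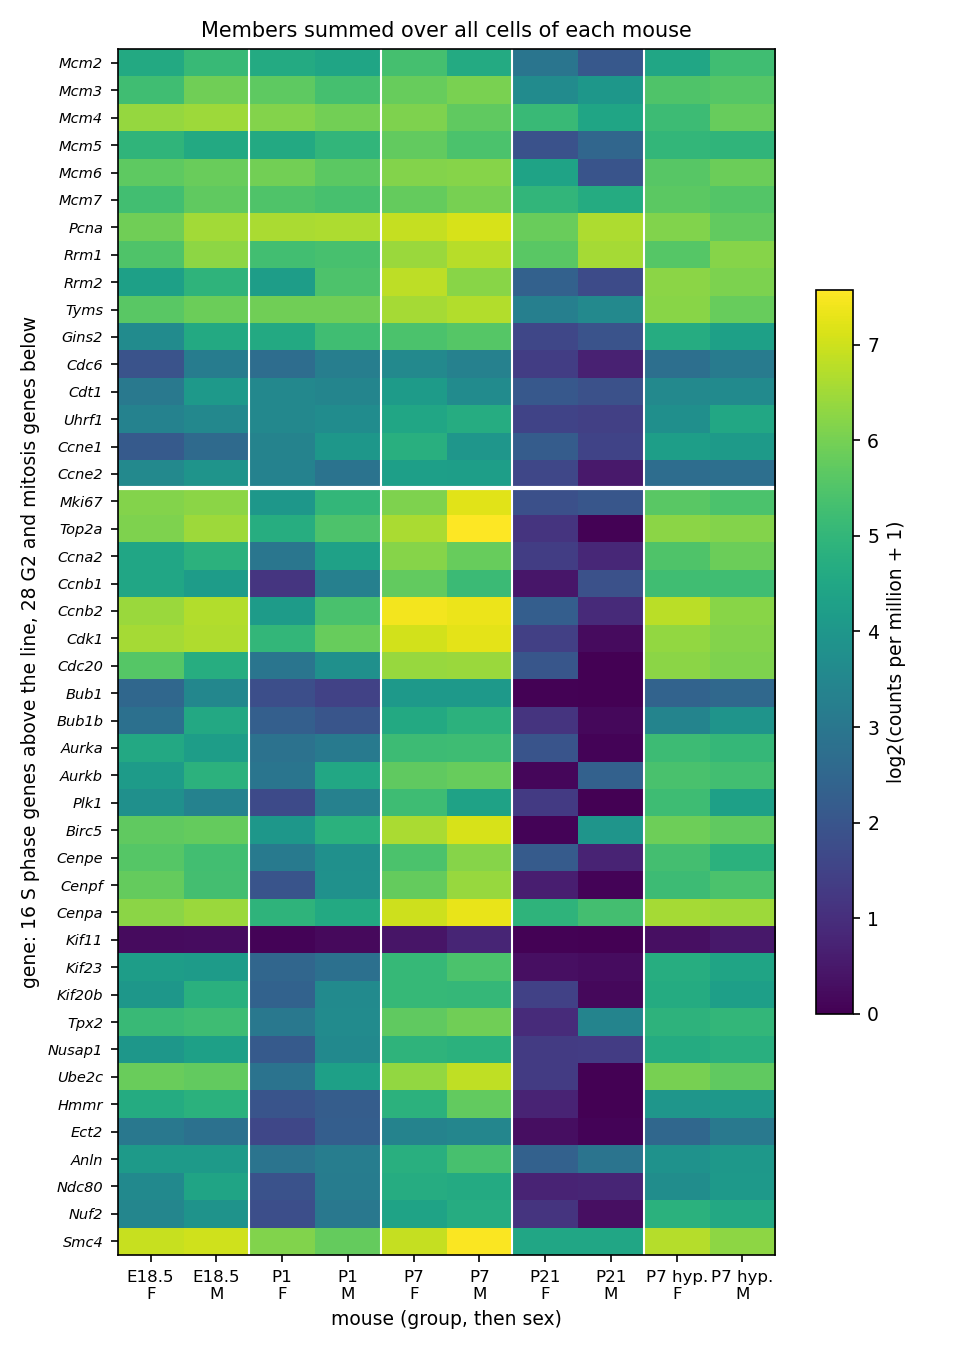
Level of each member (y axis, genes; S phase above the line, G2 and mitosis below) in the summed cells of each of the 10 mice (x axis, group and sex), as the colour scale states. All 44 members have fold changes below 0 from P7 to P21, and all 28 of the later set from E18.5 to P1.

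Per gene, edgeR's quasi-likelihood test with Benjamini-Hochberg adjustment over all 17283 genes tested was applied to the per-mouse sums, with a term for sex, at an adjusted p of 0.05. Between E18.5 and P1, Cenpa was the only member past the threshold. E18.5 mice had 74.5 and 85.2 CPM, P1 mice 29.2 and 23.3, with no overlap. The log2 fold change was -1.60 (SE 0.27, adjusted p = 0.0210), where 0.307% of all genes were called lower. All 28 G2 and mitosis members had fold changes below 0 (median -1.53), also in each sex alone, where nearly all cells of both ages shared a sequencing run (medians -1.70 and -1.13). Of 16 S phase members, 9 were above 0 (median 0.01), against 49.4% of all genes. Mki67 had 70.6 and 74.5 CPM, then 15.2 and 31.4 (-1.71, SE 0.37, adjusted p = 0.0619). Pcna had 60.2 and 90.7, then 95.7 and 97.95 CPM (0.38, SE 0.30). Of the other cycle genes, 0 of 40 and 0 of 62 were called by edgeR. DESeq2 called 10 members, 1 higher and 9 lower, among 6.58% of all genes. The edgeR count was 0 without any 1 of the 4 E18.5 and P1 mice and 12 without either P21 mouse, and Cenpa was lost in the former cases with a change between -1.86 and -1.34.

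From P1 to P7 the members called were both higher. Cenpa, at 127 and 158 CPM at P7, rose by 2.43 (log2, SE 0.27, adjusted p = 0.0259). Kif23, a motor of the central spindle, went from 4.64 and 5.96 CPM to 32.6 and 42.0 and rose by 2.81 (SE 0.40, adjusted p = 0.0411). These were the 2 members called, where 0.0984% of all genes were called higher. Fold changes were above 0 for 43 of 44 members (50.5% of all genes), with a median of 2.39 over the 28 later members and 0.56 over the 16 S phase members. Mki67, at 68.2 and 149 CPM at P7, had 2.21 (adjusted p = 0.0535) and Rrm2, from 17.7 and 42.7 to 112 and 73.9 CPM, had 1.64 (adjusted p = 0.215). Of the other cycle genes, 0 of 40 in S phase and 4 of 62 in G2 and mitosis were called higher. DESeq2 called 16 members, all higher, where 5.51% of all genes were called in either direction. The edgeR count was 0 without any 1 of the 6 E18.5, P1 and P7 mice, 21 without either P21 mouse, and 1 without either hyperoxia mouse. The females' P1 and P7 libraries were sequenced in different runs, while the males' mesenchymal sort was in 1.

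Between P7 and P21 most members fell. edgeR called 38 of 44 lower, 13 of S phase and 25 of G2 and mitosis, where 4.58% of all genes were called lower, and none higher. The median fold change was -4.83, against 0.03 over all genes. Top2a had 97.5 and 189 CPM at P7 and 1.20 and 0.0396 at P21, a log2 fold change of -7.91 (SE 1.24, adjusted p = 0.00424). Cdk1 had 130.9 and 152 CPM, then 1.68 and 0.174, a log2 fold change of -7.37 (SE 0.92, adjusted p = 0.0013). Neither gene's groups overlapped, and the P21 values were under 2 CPM. The other 3 of the 5 largest falls were those of Bub1, a checkpoint kinase (-9.02, SE 0.92), Cenpf, a kinetochore protein (-7.79, SE 1.17) and Kif23 (-7.45, SE 0.50). At P21 Bub1 was read in 0% of the thinned cells of both mice, Cenpf in 0.195% and 0%, and Kif23 in 0.781% and 0.331%. With P21 levels so near 0, the size and order of these largest falls depend on the prior count. Mcm5 (-3.69, SE 0.39), Rrm2 (-4.86, SE 0.54), Ccne2 (-4.00, SE 0.73), Mki67 (-5.20, SE 0.43) and Ccnb1 (-5.27, SE 0.99) were also called lower. The 6 members not called were Pcna (-0.76, SE 0.30, adjusted p = 0.147), Rrm1 (-0.50), Mcm4 (-1.13), Birc5 (-4.54, SE 1.47, adjusted p = 0.0821), Kif11 and Plk1. Pcna stood at 119 and 138 CPM at P7 and at 56.8 and 98.4 at P21. Birc5 at P21 was at 0.0586 CPM in the female and 14.4 in the male. Of other cycle genes, 25 of 40 in S phase and 46 of 62 in G2 and mitosis were called lower. Other measures differed between the same mice. The 6 contractile markers summed to 10465 and 10595 CPM at P7 and to 1917 and 2858 at P21, and the 6 mesenchymal markers to 11943 and 11305, then 25045 and 27164. The median number of genes at equal depth was 2443 and 2339 at P7, and 2640.5 in the female and 1525.5 in the male at P21. The part of cell make-up and gene number in the members' fall was not tested. DESeq2 called 42 members, all lower, where 20.8% of all genes were called in either direction. The edgeR count was 24 without either P7 mouse and 34 to 41 without another mouse.

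Members were also lower at P21 in cells that the authors had not named proliferating. The make-up of these cells differed between the ages: 152 and 178 thinned cells were myofibroblasts at P7 and none at P21, and its part in the lower levels was not tested. In the sums over those cells edgeR called 15 members lower between P7 and P21 (10 of S phase and 5 of G2 and mitosis). Of 17196 genes, 3.33% were called lower. DESeq2 called 25 members, all lower, where 19.8% of all genes were called in either direction. The median was -2.47, against 0.03 over all genes, and 16 of 40 other S phase genes and 14 of 61 other G2 and mitosis genes were called lower. Cdk1 went from 48.3 and 59.0 CPM to 1.66 and 0.172 (log2 fold change -6.05, SE 0.86, adjusted p = 0.00344). The next largest falls were those of Top2a (-5.76, SE 1.38), Ccnb2 (-4.41, SE 0.67), Gins2, of the helicase complex (-3.86, SE 0.47), and Ccne2 (-3.81, SE 0.76). Mcm5 (-3.33), Rrm2 (-3.56) and Mki67 (-3.49) were called lower too. Cenpa had 27.6 and 42.1 CPM at P7 and 28.98 and 37.9 at P21 (-0.05, SE 0.46) in these cells. Pcna had 102 and 106, then 56.0 and 97.3 CPM (-0.46, SE 0.31). The edgeR count was 8 without the female and 7 without the male P7 mouse, 21 without the female P21 mouse, and 14 to 15 otherwise.

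The earlier steps in the same cells gave no member past edgeR's threshold. From E18.5 to P1 the count was 0 (1.31% of all genes), with 3 at an unadjusted p under 0.05 (Ccne1 1.76, Mki67 -1.19, Smc4 -0.87; 12% of all genes) and 1 by DESeq2 (Ccne1, higher; 6.7% of all genes). The median of the 44 was -0.20, against -0.01 over all genes. From P1 to P7 it was 0 (0.093%), with 6 at an unadjusted p under 0.05 (10.4%) and 5 by DESeq2 (Ccnb2, Cenpa, Cenpf, Mki67 and Rrm2, all higher; 4.98%). Rrm2 had 12.9 and 5.37 CPM at P1 and 49.6 and 25.6 at P7 (2.09, SE 0.40, adjusted p = 0.0780). Fold changes were above 0 for 42 of 44 members, with a median of 1.17 against 0.00 over all genes. Without either P21 mouse, 1 member was called.

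At P21 almost no cell was rich in members. Of the thinned E18.5 cells, 8.02% and 9.12% held 10 or more members, against 5.48% and 5.69% at P1, 14.7% and 15.2% at P7, and 0.391% and 0% at P21. G2M-rich-only cells were 3.60% and 3.33%, 0.332% and 0.380%, 3.89% and 4.39%, and 0.195% and 0%. S-rich-only cells outside the proliferating subtypes lay between 7.90% and 10.5% until P7: 8.20% and 10.5% before birth (E18.5), 7.90% and 8.92% on day 1, and 9.65% and 9.35% on day 7. At P21 they were 6 of 512 cells (1.17%) and 0 of 302, for which the Wilson 95% upper bound is 1.26% and 3 counts of the total come to 0.993%. With 2 mice against 2, the smallest two-sided p an exact permutation test can give is 0.333, so these shares were not tested. The Wilson 95% intervals of E18.5, P1 and P7 overlap for the S-rich share (6.22 to 10.7 at the female E18.5 mouse, 5.99 to 10.3 at the female P1 mouse, 7.43 to 12.4 at the female P7 mouse) and cover counting error only.

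**Figure D5:**
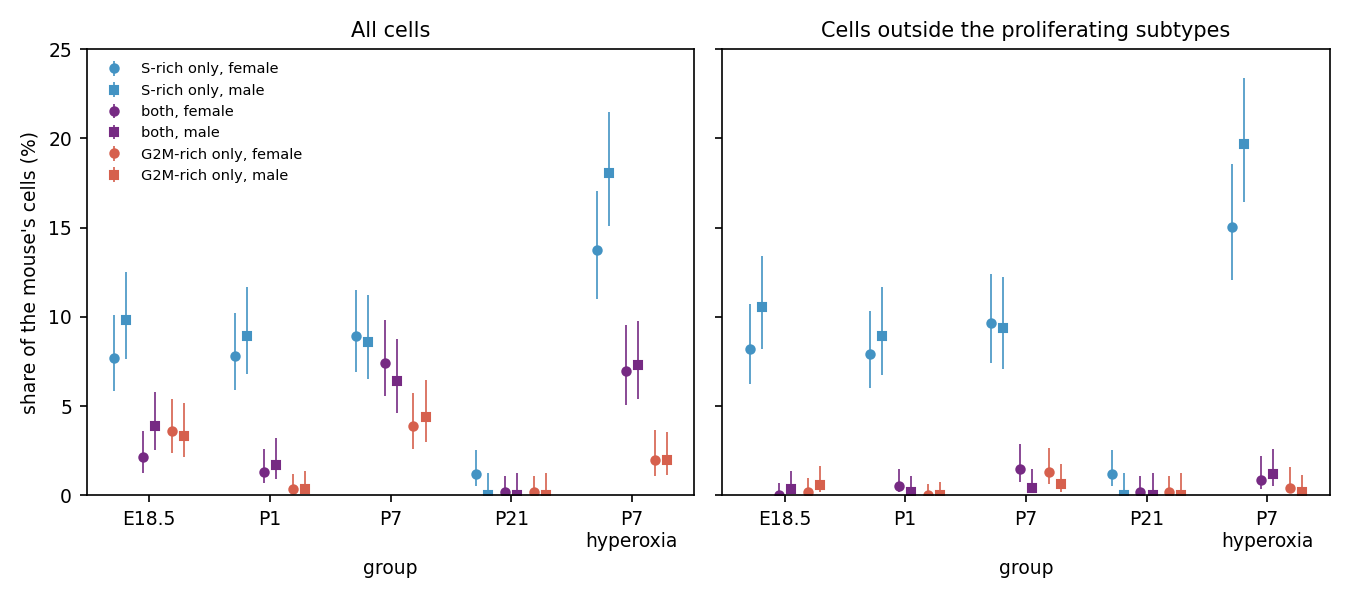
Share of each mouse's cells (y axis, percent) by state at 100000 reads per cell, in the 5 groups (x axis), 1 point per mouse with its Wilson 95% interval. The S-rich-only share outside the proliferating subtypes lies between 7.90% and 10.5% from E18.5 to P7 in air, and is 1.17% and 0% at P21.

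In P7 hyperoxia the members' summed levels lay below those of P7 air, but no single member passed the adjusted threshold. Summed S phase members were 884 and 865 CPM in air and 570 and 601 in hyperoxia, and the later members 1610 and 2046 against 1166 and 1040. Neither set overlapped between the groups. The share of cells with 10 or more members did not follow these sums. It was 14.6% and 15.15% in hyperoxia, against 14.7% and 15.17% in air. At a cut of 6 members the means of the 2 mice were 29.9% in hyperoxia and 22.2% in air, and at 15 members 10.1% and 11.9%. Fold changes were below 0 for 43 of 44 members, Nuf2 (0.17) being the exception, with a median of -0.68 against 0.00 over all genes. edgeR called 0 members (0.243% of all genes were called), and the smallest adjusted p was 0.213. At an unadjusted p under 0.05 there were 9 members (12.3% of all genes), and DESeq2 called 3, all lower (Anln, Bub1 and Pcna; 4.57% of all genes). Pcna had 119 and 138 CPM in air and 68.6 and 52.5 in hyperoxia (-1.06, SE 0.30). Bub1 had 15.6 and 15.9, then 4.33 and 4.94 (-1.77, SE 0.66, adjusted p = 0.322), and Ccne2 18.2 and 18.1, then 5.47 and 5.78 (-1.68, SE 0.66, adjusted p = 0.342). Mki67 had 68.2 and 149, then 48.2 and 41.6 (-1.17, SE 0.37). Mcm5 (-0.62), Rrm2 (-0.39), Ccnb1 (-0.32), Cdk1 (-0.92), Birc5 (-0.96), Top2a (-0.99) and Cenpf (-0.84) had adjusted p from 0.502 to 0.903. Except for those few CD31 cells, the hyperoxia mice shared no run with the air mice, so hyperoxia and sequencing run cannot be told apart.

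Outside the proliferating subtypes the S phase sums were 656 and 591 CPM in air and 423 and 423 in hyperoxia, and the later sums 325 and 446 against 133 and 163. Fold changes were below 0 for 39 of 44 members (median -0.78, against 0.01 over all genes). No member was called by edgeR (0.268% of all genes), 8 had an unadjusted p under 0.05 (12.8%), and DESeq2 called 5 (Ccnb2, Ccne2, Cenpa, Mki67 and Ndc80, all lower; 5.05%). Mki67 had 17.3 and 46.1 CPM in air and 5.56 and 6.23 in hyperoxia (-2.40, SE 0.55, adjusted p = 0.122). Cdk1 had 48.3 and 59.0, then 13.8 and 14.7 CPM (-1.93, SE 0.71, adjusted p = 0.307). Without either P21 mouse edgeR called 2.

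For S phase the shares of cells and the CPM gave opposite orders. S-rich-only cells outside the proliferating subtypes were 15.0% (interval 12.1 to 18.6) and 19.7% (16.4 to 23.4) in hyperoxia, against 9.65% and 9.35% in air. The same genes' CPM was lower in hyperoxia, so no order is read from these shares. Cells of the hyperoxia mice had more genes with a read at equal depth, with medians of 3794 and 4519 against 2443 and 2339. The part of gene number in the shares of S-rich and member-rich cells was not tested. Summed endothelial markers were 15.8 and 36.3 CPM in hyperoxia and 5.13 and 7.11 in air, against mesenchymal sums of 11305 to 19281. The 6 contractile markers summed to 9011 and 4311 CPM against 10465 and 10595, and the thinned cells held 58 and 45 myofibroblasts against 152 and 178. The part of these cells in the member levels was not tested over all cells, but myofibroblasts were also compared alone.

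Within myofibroblasts, P7 air against hyperoxia gave fold changes below 0 for 36 of 43 members tested (median -1.34, against -0.01 over all genes). edgeR called none (0% of 13380 genes), 9 had an unadjusted p under 0.05 (6.33%) and DESeq2 called 6, all lower (2.82%). Cdk1 had 80.8 and 93.9 CPM in air and 12.5 and 13.3 in hyperoxia (-2.75, SE 0.45, adjusted p = 0.278), with no overlap. Top2a had 16.7 and 59.1, then 5.59 and 9.91 CPM, and Birc5 27.2 and 45.1, then 3.45 and 3.02. The edgeR count was 3 without the female and 4 without the male P1 mouse. Member-rich cells were 19.0% and 26.7% of the myofibroblasts in hyperoxia and 10.5% and 11.2% in air, with overlapping intervals. In this subtype too, shares of cells and CPM gave opposite orders.

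Within the proliferating subtypes no member passed the threshold between groups, which does not show that they were equal. Between E18.5 and P7 edgeR called no member (0.00724% of 13813 genes), 2 had an unadjusted p under 0.05 (Ccne1 1.73 and Rrm2 1.49; 5.58%) and DESeq2 called 0 (3.45%). Rrm2 had 115 and 356 CPM, then 649 and 490. Between P7 air and hyperoxia edgeR called 0 (0%), 0 had an unadjusted p under 0.05 (2.97%) and DESeq2 called 0 (0.811%), with 38 of 44 below 0 (median -0.42, against 0.01 over all genes). Top2a was at 833 and 1473 CPM in air and 831 and 686 in hyperoxia, with overlap. These sums rest on 38 to 56 cells a mouse at E18.5, P7 and hyperoxia and on 8 and 11 at P1. Cells both S-rich and G2M-rich were 34.2% and 52.6% in the E18.5 mice, 71.4% and 72.7% on day 1 (5 of 7 and 8 of 11 cells), 67.9% and 60.0% at P7, and 73.8% and 75.6% in hyperoxia. Both E18.5 mice lay below all these later mice. The Wilson interval of the male E18.5 mouse (37.3 to 67.5) overlapped those of all later mice. That of the female E18.5 mouse did not overlap those of the female P7 mouse and of both hyperoxia mice. It overlapped those of the male P7 mouse and of the P1 mice. These intervals cover counting error only. The subtypes behind the shares differed, with 61 fibroblasts and 9 myofibroblasts at E18.5, 23 and 75 at P7, and 59 and 25 in hyperoxia, whose part in the shares was not tested. No proliferating cell was labelled at P21.

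Other single subtypes with enough cells gave no called member by edgeR. Early adventitial fibroblasts had 0 of 43 between E18.5 and P1 (0.0135% of 14831 genes), 8 at an unadjusted p under 0.05 (9.55%) and 6 by DESeq2 (5.9%), with a median of 1.10 against 0.15 over all genes. In them Top2a had 2.15 and 0.111 CPM, then 18.8 and 9.29. In hyperoxia they had 0 (0%), 1 (Cdc20, 8.31%) and 0 (3.35%). Early alveolar fibroblasts had 0 between P1 and P7 (0%), 3 at an unadjusted p under 0.05 (Rrm2, Top2a and Ect2; 2.57%) and 2 by DESeq2 (Top2a higher, Ect2 lower; 1.75%). In hyperoxia they had 0 (0%), 1 (Ect2, 2.89%) and 1 (Ect2, 2.01%). Pericytes between P7 and P21 had 0 of 32 (0.0504% of 11894 genes), 9 (4.66%) and 12, all lower (3.7%), and edgeR called 1 without the female P1, the male P1 or the male P7 mouse. In sums of so few cells a fitted fold change of a gene near 0 depends on the prior count. For that reason no fold changes of single genes are given for these subtypes, and the median above shares this limit.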

How the data were processed

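Single-cell libraries of mouse distal lung were made with Tn5 on plates, per the labels' protocols. The authors deposited 1 table of read counts per gene and cell, not normalized and without named molecular identifiers. The submitters' processing notes name STAR 2.5.2b, HTSeq 0.10 and the build GRCh38, a human build name, and how each was used is not given in the sources used here. Cell subtype, sex, age and treatment came from the labels, and the authors' subtype names were used as given.

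Sums of counts per mouse were formed (all cells, cells outside the proliferating subtypes, cells within them, and 4 single subtypes with at least 10 cells a mouse, or 5 for the proliferating cells). edgeR 4.0.16 in R 4.3.3 (TMM scaling, filterByExpr, quasi-likelihood test, term for sex, all mice of all groups in 1 fit, Benjamini-Hochberg over all genes tested, threshold 0.05) was the main test and DESeq2 1.42.0 an alternative. The share of all genes beside a DESeq2 count covers both directions, as does that beside an unadjusted count or an edgeR count of 0. The script was tested on simulated data. For shares of cells, counts were thinned at random to 100000 reads per cell. A fold change is on the log2 scale and CPM are TMM-scaled where summed by mouse. The edgeR test itself gives no standard error. Each SE printed is the absolute fold change divided by the square root of the test's F statistic. Intervals are Wilson 95% intervals, covering counting error only, as reads are not independent molecules. With 1 female and 1 male mouse per group, p-values measure the spread between these mice. Doublets were not called.

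Lengths per gene came from GENCODE exon unions and promoters from RefSeq. Alternatives covered the tool, scaling, filter, sex term, mice fitted, cells kept, thinning, cuts and each mouse left out. The members and lists were chosen with earlier results of these data known. Named with values were 10 anchors (Mki67, Top2a, Mcm5, Pcna, Rrm2, Ccne2, Ccnb1, Cdk1, Birc5 and Cenpf), up to 5 of the largest called rises and falls per comparison, and the highest and lowest of each role for levels. Others named were chosen after their values were seen.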

Additional observations from a re-analysis of the deposited data

How the results depend on the processing

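Members called, of 44 in all cells, moved by over 1.5 times as follows. For E18.5 to P1 (1), the count was 10 by DESeq2, 8 with only the mice compared and 7 with cells thinned to equal reads. For P1 to P7 (2), it was 16, 25 and 12. For P7 to hyperoxia (0), DESeq2 gave 3. Outside the proliferating subtypes, DESeq2 gave 1, 5, 25 and 5 for E18.5 to P1, P1 to P7, P7 to P21 and hyperoxia (0, 0, 15 and 0). There, only the mice compared gave 3 for P1 to P7 and 7 for hyperoxia, and thinning gave 1 and 1. By subtype, where edgeR called 0, DESeq2 gave 6 in early adventitial fibroblasts (E18.5 to P1), 2 and 1 in early alveolar fibroblasts (P1 to P7, hyperoxia), 6 in myofibroblasts and 12 in pericytes. Thinning gave 1 in early alveolar fibroblasts (P1 to P7) and 2 in pericytes, no filter on low counts gave 2 in pericytes, and only the mice compared gave 1 in myofibroblasts.

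The shared label F or M was a term in the fit. Without it (no replicate block), 2 members were called for E18.5 to P1 and 4 for P1 to P7, and no other count moved by over 1.5 times. Deviations of same-sex mice from their group means correlated at -0.095 to 0.171 over all genes, across 10 pairs of groups. Over the members alone the range was -0.288 to 0.276. Such correlations cannot exclude an effect of sex, or of a run shared within a sex, on single genes.

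With each mouse left out in turn, counts ranged from 0 to 12 (E18.5 to P1), 0 to 21 (P1 to P7), 24 to 41 (P7 to P21) and 0 to 0 (hyperoxia) in all cells. Outside the proliferating subtypes they ranged from 0 to 0, 0 to 1, 7 to 21 and 0 to 2. They were 0 to 4 in myofibroblasts, 0 to 1 in pericytes and 0 in the remaining 6 comparisons. A group left with 1 mouse was assumed to vary like the others.

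Shares of cells with 10 or more members (means of 2 mice 8.57%, 5.59%, 14.9%, 0.195% and 14.9% at E18.5, P1, P7, P21 and hyperoxia) were 11.1%, 7.08%, 17.0%, 0.638% and 17.9% without thinning, 20.3%, 11.1%, 22.2%, 1.41% and 29.9% at 6 members, and 6.46%, 3.37%, 11.9%, 0.195% and 10.1% at 15. At 50000 reads P1 was 4.92% and hyperoxia 13.6%. S-rich shares outside (9.37%, 8.41%, 9.50%, 0.586% and 17.4%) were 15.4%, 13.6%, 12.4%, 2.19% and 28.6% at cuts of 4 and 6, and 6.16%, 5.93%, 7.45%, 0% and 11.7% at 6 and 10. At 50000 reads P7 was 8.56%, P21 0.192% and hyperoxia 13.6%.

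Sign changes were looked for only in the anchors in all cells and in the largest called rises and falls of each comparison. Those found were of anchors in all cells that were not called in the comparison concerned. Uncalled members in the other sets of cells were not examined, so whether any of them changed sign is not known. Mcm5, E18.5 to P1 (0.01; -0.25 to 0.30 with each mouse left out), was -0.25 without the male E18.5 mouse, -0.19 without the male P1 mouse, and -0.002 and -0.003 without the female and male P7 mice. Rrm2 (0.32; -0.59 to 0.93) was -0.26 with thinning and -0.59 without the male P1 mouse. In hyperoxia Ccnb1 (-0.32; -1.04 to 0.90) was 0.90 without the female P7 mouse and 0.11 without the male hyperoxia mouse, and Rrm2 (-0.39; -0.77 to 0.07) was 0.07 without the female P7 mouse. The cause of these moves was not tested.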
